A study of Mus musculus with 12 samples.

Results

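MITF, TFE3, TFEB and TFEC make up the MiT/TFE family of transcription factors. The 4 genes of the family were described together with 3 genes of the folliculin complex (Flcn, Fnip1 and Fnip2), 2 Rag GTPase genes (Rragc and Rragd) and Gpnmb, a known target of the family. These 10 mouse genes were listed by symbol for their place in the pathway, with earlier results of these data known. All 10 were among the 32688 genes of the count table. The filter on low counts kept 18066 genes and 9 of the 10. Tfec did not pass it. RNA had been sequenced from RAW264.7 cells, a mouse macrophage line grown from a leukemia virus-induced tumor, in 4 groups of 3 libraries. Null cells, which the study treats as wild type, were compared with CRISPR TFEB/TFE3 DKO (double-knockout) cells, and each genotype was sequenced both as controls and after exposure to 100 µM etoposide for 8 h. Each genotype was represented by 1 cell line, so a difference between genotypes could not be told apart from a difference between lines. The study calls its etoposide-treated samples independent, but whether the 3 libraries of a group came from separate cultures is not given in the sources used here. The p-values then measure only the spread between these libraries, which may be technical.

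MiT/TFE proteins bind the E-box CACGTG, and its extended form TCACGTG marks many promoters of lysosomal and autophagy genes (the CLEAR network). In fed cells the Rag GTPases bring mTORC1 and the factors themselves to the lysosome, where they are phosphorylated and held in the cytosol by 14-3-3 proteins. Folliculin, with a FNIP partner, switches RagC and RagD to the form that is required for this step. Etoposide blocks topoisomerase II on the DNA and leaves strand breaks.

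Library totals lay between 29837255 and 49255784 counts for Null controls, 34918422 and 58697226 for DKO controls, 50172982 and 58428399 for Null cells with etoposide, and 54507188 and 61809316 for DKO cells with etoposide. The sample titles of the DKO etoposide libraries read RAW264.7 MEFs, whereas their other labels say RAW264.7 alone. These titles also lack the word DKO, which the DKO control titles carry. All 8 macrophage markers examined were detected in each group, with summed CPM (counts scaled to a common library size) of 4832 to 5132 in Null and 4193 to 4346 in DKO controls, and of 4313 to 4546 in Null and 4585 to 4775 in DKO cells after etoposide. The 8 fibroblast markers summed to 0.646 to 0.928, 0.152 to 0.263, 1.91 to 2.04 and 1.01 to 1.20 CPM in the same order, and 6 of them, the collagens among them, reached at most 8 counts in any library. The other two were called higher with etoposide in both genotypes, and after it both were lower in the DKO libraries. Pdgfra had 0 counts in each control library and 18 to 28 in Null and 3 to 8 in DKO etoposide libraries, and Pdgfrb had 25 to 45 in Null and 5 to 13 in DKO controls, and 71 to 77 and 45 to 53 after etoposide. The Pdgfrb calls were lost without Null control replicate 2 (etoposide in Null cells) and in 6 of 20 alternatives (genotype after etoposide), among them the omission of any 1 Null etoposide library or of DKO etoposide replicate 2 or 3. Of the 8 macrophage markers, Spi1 and Ptprc were higher and Fcgr1, Itgam, Lyz2 and Csf1r lower in DKO control cells by limma-trend, and after etoposide Spi1 and Ptprc were higher and Fcgr1 and Itgam lower. The Ptprc call in control cells was lost in a fit of the 2 groups alone (0.22 to 0.36 over 20 alternatives), and that of Itgam after etoposide in 6 of 20 (-0.45 to -0.32), among them the omission of any 1 Null etoposide library or of DKO etoposide replicate 1 or 2. Up to 63% of the Itgam counts could come from a gene that overlaps it on the same strand. Spi1 lay at 202 to 231 CPM in Null and 309.9 to 348 CPM in DKO controls, and at 178 to 195 and 363 to 392 CPM after etoposide. Fcgr1, the marker with the largest genotype difference, lay at 66.9 to 74.3 CPM in Null and 28.4 to 30.4 CPM in DKO controls, and at 36.3 to 37.3 CPM in Null and 4.72 to 5.42 CPM in DKO libraries after etoposide. The part of these markers in the results below was not tested. In such bulk samples, fewer cells of a state and less RNA per cell cannot be told apart. DKO control replicate 1 stood apart from its group: the median squared difference between libraries was 45.6 and 54.7 times counting noise against replicates 2 and 3, which differed from each other by 6.46 times, and 3.39 to 36.8 times in the other groups. Without it the DKO control difference was -1.72 for Tfeb, -1.33 for Tfe3, 0.26 for Mitf, -0.84 for Flcn, -0.81 for Fnip1, -0.26 for Fnip2 and -2.99 for Gpnmb, and each of the 7 kept its call.

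The genes targeted in the DKO cells were examined first. Tfeb (chromosome 17, 47737030 to 47792419, plus strand, GRCm38) encodes a master regulator of lysosome biogenesis. It was measured at 17.2, 16.6 and 16.8 CPM in the Null control libraries and at 3.14, 4.83 and 5.25 CPM in the DKO control libraries. After etoposide it was at 7.62, 7.10 and 7.95 CPM in Null and at 4.27, 4.30 and 4.44 CPM in DKO cells. Every DKO library was below every Null library of the same treatment, and the Null etoposide libraries were all below the Null controls. The control DKO cells kept 26.2% of the Null level, a log2 difference of -1.95 ± 0.156 (SE; limma-trend, Benjamini-Hochberg adjusted p = 1.62e-06). After etoposide they kept 57.4%, a log2 difference of -0.79 (limma-trend adjusted p = 0.00179). The narrower gap came with a fall in Null cells: etoposide lowered Tfeb there to 44.9% of control (log2 difference -1.15, limma-trend adjusted p = 8.99e-05). In DKO cells the difference was 0.01, with a 95% confidence interval from -0.33 to 0.35. The 2 responses differed by 1.16 ± 0.22 on the log2 scale (interaction in limma-trend, adjusted p = 0.00499).

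Tfe3 (chromosome X, 7762560 to 7775202, plus strand), the close relative that shares many targets with Tfeb, was also lower in the DKO cells. It was at 119, 105 and 89.4 CPM in Null control and at 103, 99.1 and 102 CPM in Null etoposide libraries. In DKO cells it was at 31.5, 39.4 and 42.5 CPM as control and at 38.6, 34.2 and 40.4 CPM after etoposide. The genotypes did not overlap under either treatment, while control and etoposide libraries of a genotype did. DKO cells held 36.2% of the Null level as controls (log2 difference -1.47 ± 0.123, limma-trend adjusted p = 2.48e-06) and 37.2% after etoposide (-1.43, limma-trend adjusted p = 1.88e-06). For etoposide the log2 difference was -0.04 in Null cells (95% confidence interval -0.30 to 0.23) and 0.00 in DKO cells (-0.26 to 0.27). Counts summed over a whole gene do not show where an edit lies, and transcripts of an edited allele are still counted, so the remaining Tfeb and Tfe3 counts say nothing of protein.

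Mitf, the untargeted family member best known from melanocytes and osteoclasts, was higher in the DKO cells and was lowered by etoposide in both genotypes. Mitf (chromosome 6, 97807052 to 98021349, plus strand) was at 46.5, 52.7 and 50.4 CPM in Null control and at 61.0, 59.6 and 58.5 CPM in DKO control libraries. After etoposide it was at 26.8, 25.3 and 24.9 CPM in Null and at 36.2, 40.0 and 38.2 CPM in DKO libraries. No 2 of the 4 groups overlapped. The DKO level was 119.8% of Null in control cells (log2 difference 0.26 ± 0.0710, limma-trend adjusted p = 0.0206) and 149% of Null after etoposide (0.57, limma-trend adjusted p = 4.94e-05). The control difference lost its call without Null control replicate 1 (0.21, limma-trend adjusted p = 0.0610) and without DKO control replicate 2 (0.26, limma-trend adjusted p = 0.0597). Over 20 alternative analyses it ranged from 0.18 to 0.30 and lost the call in 5. The others were a fit of the 2 groups alone (0.25, limma-trend adjusted p = 0.120), scaling by library size alone (0.18, limma-trend adjusted p = 0.103) and no low-count filter (0.26, limma-trend adjusted p = 0.0616). Etoposide lowered Mitf, with a log2 difference of -0.96 in Null cells (limma-trend adjusted p = 5.47e-07) and of -0.65 in DKO cells (limma-trend adjusted p = 1.38e-05). The difference between these responses was 0.31 (95% confidence interval 0.09 to 0.53) and did not pass the adjusted threshold (limma-trend adjusted p = 0.0831). It passed with DESeq2 (0.33), with scaling by library size alone (0.35) and without Null control replicate 1 (0.36).

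Tfec (chromosome 6, 16833373 to 16898441, minus strand), the fourth family gene, which is described in macrophages, had 0 counts in 11 of the 12 libraries and 1 count in Null etoposide replicate 3. The limit that a count of 0 allows, 3 counts of a library total, was at most 0.0973 CPM in any library. No fold is given. The DKO libraries all held 0 counts, so any Tfec level in them lay under that limit, and only a difference smaller than it was not detectable at this depth.

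**Figure D1:**
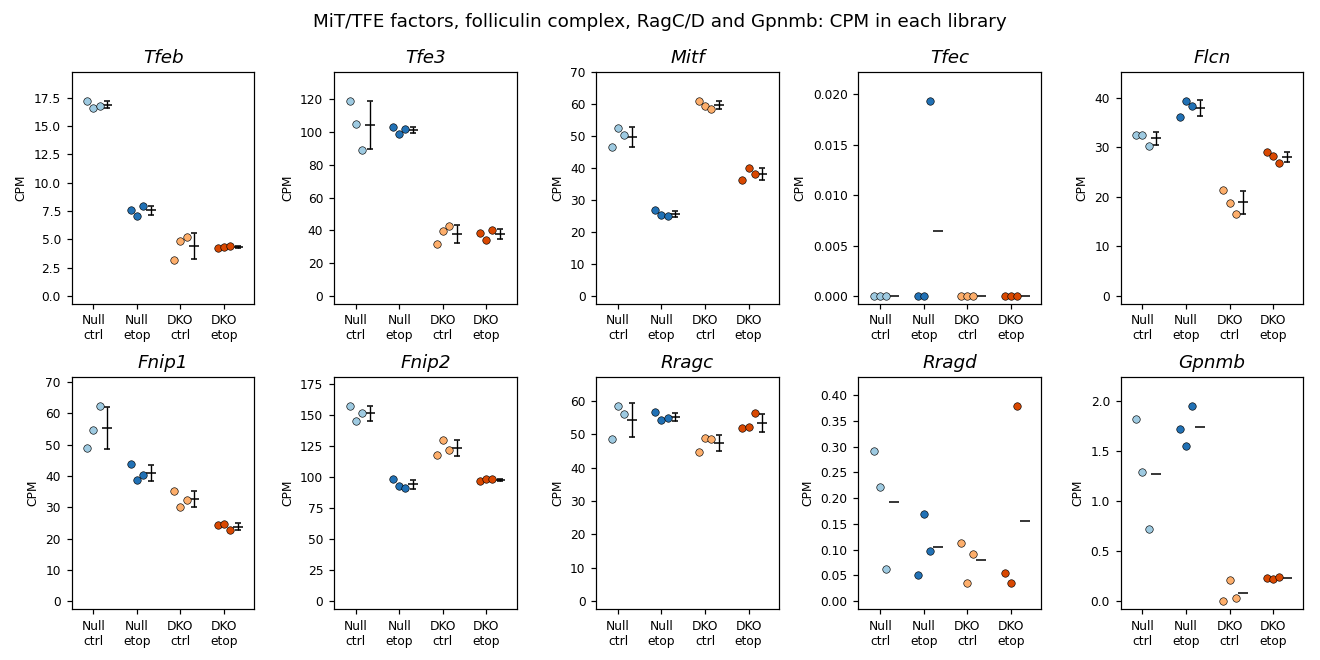
CPM (vertical axis, linear) of the 10 genes in each of the 12 libraries, grouped by genotype and treatment (ctrl, control, and etop, etoposide for 8 h). Points are libraries, horizontal marks are group means and bars are the SD of 3 libraries, drawn for the 7 genes with higher counts; Mitf is the gene whose DKO points, from 58.5 to 61.0 CPM as controls, lie above the Null points.

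The size of the Mitf difference was set beside the size of the loss. Levels of different genes were compared as CPM per kb of exon (CPM divided by the total length of the gene's exons in the annotation, which ignores which isoform is made). On this scale Tfe3 was the most abundant family transcript in Null control cells (11.3 CPM per kb), before Mitf (8.04) and Tfeb (2.97). In DKO control cells the order was Mitf (9.64), Tfe3 (4.08) and Tfeb (0.777). Tfeb and Tfe3 together were 14.3 ± 1.64 CPM per kb in Null control and 4.86 ± 0.813 in DKO control cells (SD, n = 3). The loss of 9.39 CPM per kb stood against a Mitf difference of 1.59, which is 17.0% of it. After etoposide the corresponding loss was 7.43 and the Mitf difference 2.02 CPM per kb, 27.1% of it. The whole family summed to 20.7 to 23.4 CPM per kb in Null and 13.8 to 15.0 in DKO controls, and to 16.0 to 16.8 in Null and 10.8 to 11.3 in DKO libraries after etoposide. The DKO sums were below the Null sums in 3 of 3 libraries under both treatments. Mitf made up 36.2% ± 3.68 of the family in Null and 66.6% ± 4.28 in DKO controls, and 25.2% ± 0.629 in Null and 56.0% ± 2.77 in DKO cells after etoposide (SD, n = 3). Such a share also rises when the other members fall. The DKO sums and shares include transcripts of the edited Tfeb and Tfe3 alleles, so they say nothing of family protein. The percentages of the loss are ratios of group means without a spread. That of control cells rests on a Mitf difference whose call was lost in 5 of 20 alternatives.

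**Figure D2:**
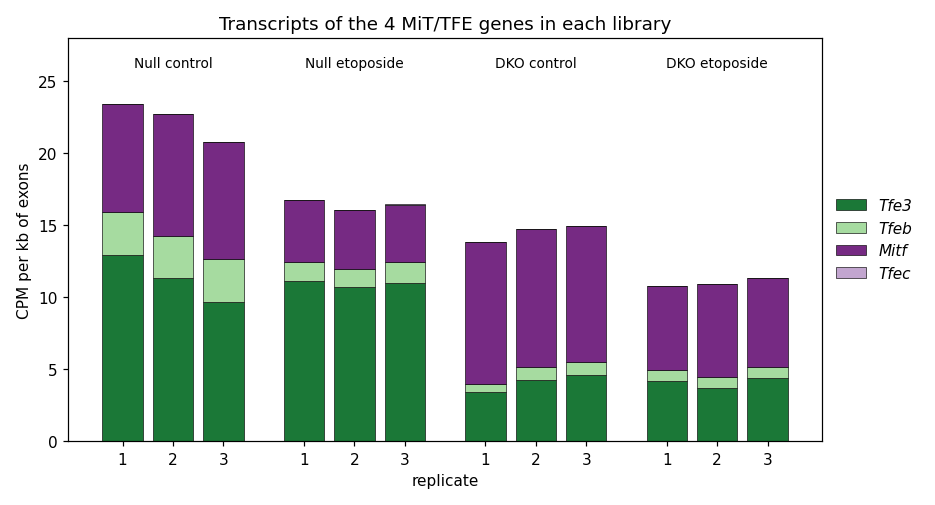
Stacked bars give the transcripts of the 4 MiT/TFE genes in each library as CPM per kb of exons (vertical axis, from 0), with the 3 replicates of each group side by side. Mitf takes the largest share in the DKO libraries, the total stays below that of Null libraries (13.8 to 15.0 against 20.7 to 23.4 in control cells), and Tfec is too low to be seen. Transcripts of the edited Tfeb and Tfe3 alleles are counted in the DKO bars.

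Of the folliculin complex, Flcn and Fnip1 were lower in DKO cells under both treatments, and Fnip2 was lower in the control comparison. Flcn (chromosome 11, 59791408 to 59810016, minus strand), which encodes folliculin, was at 32.5, 32.5 and 30.3 CPM in Null control and at 21.3, 18.7 and 16.6 CPM in DKO control libraries. After etoposide it was at 36.1, 39.3 and 38.4 CPM in Null and at 29.0, 28.2 and 26.9 CPM in DKO libraries. No 2 groups overlapped, and the DKO etoposide libraries lay between DKO control and Null control. DKO cells held 59.4% of the Null level as controls (log2 difference -0.76 ± 0.0907, limma-trend adjusted p = 5.60e-05) and 73.9% after etoposide (-0.43, limma-trend adjusted p = 0.00259). Flcn was the member of the complex that rose with etoposide, by 0.58 on the log2 scale in DKO cells (limma-trend adjusted p = 2.78e-04) and by 0.25 in Null cells (limma-trend adjusted p = 0.0417). The Null call was lost in 13 of 20 alternatives, with values from 0.22 to 0.29. They include the omission of any 1 library other than DKO control replicate 1 or 3. The responses differed by 0.32 (95% confidence interval 0.04 to 0.60, limma-trend adjusted p = 0.166), and by 0.41 without DKO control replicate 1 (limma-trend adjusted p = 0.0356).

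Fnip1 (chromosome 11, 54438199 to 54518235, plus strand), 1 of 2 alternative partners of folliculin, was at 48.9, 54.8 and 62.2 CPM in Null control and at 35.2, 30.1 and 32.3 CPM in DKO control libraries. With etoposide it was at 43.7, 38.8 and 40.4 CPM in Null and at 24.3, 24.6 and 22.6 CPM in DKO libraries. All 4 groups were apart, with DKO etoposide lowest. The DKO level was 58.8% of Null in control cells (log2 difference -0.76 ± 0.0965, limma-trend adjusted p = 9.07e-05) and 58.2% after etoposide (-0.78, limma-trend adjusted p = 4.74e-05). Etoposide lowered it, with a log2 difference of -0.43 in Null cells (limma-trend adjusted p = 0.00367) and of -0.45 in DKO cells (limma-trend adjusted p = 0.00277). The difference of these responses was -0.02, with a 95% confidence interval from -0.32 to 0.28.

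Fnip2 (chromosome 3, 79455974 to 79567796, minus strand), the other partner, was at 157, 145 and 152 CPM in Null control and at 118, 130.1 and 122 CPM in DKO control libraries. The etoposide libraries were at 98.5, 92.9 and 91.5 CPM in Null and at 97.2, 98.8 and 98.1 CPM in DKO libraries. The genotypes were apart as controls and overlapped after the drug. In control cells the log2 difference was -0.30 ± 0.0637 (limma-trend adjusted p = 0.00502), and in a fit of these 2 groups alone it was the same size without passing (limma-trend adjusted p = 0.0782). After etoposide it was 0.06 (95% confidence interval -0.08 to 0.20). Etoposide lowered Fnip2, with a log2 difference of -0.68 in Null cells (limma-trend adjusted p = 3.77e-06) and of -0.33 in DKO cells (limma-trend adjusted p = 0.00127), and these responses differed by 0.35 (limma-trend adjusted p = 0.0267). The last call was lost in 8 of 19 alternatives, with values from 0.32 to 0.40 over the 19. Among the 8 were the omissions of DKO control replicate 3, of Null etoposide replicate 2 or 3 and of each DKO etoposide library, which gave 0.33 to 0.37. Per kb of exon, Fnip1 was at 0.430 ± 0.0594 of the Fnip2 level in Null and 0.311 ± 0.0387 in DKO controls, and at 0.510 ± 0.0172 in Null and 0.286 ± 0.0130 in DKO cells after etoposide (SD, n = 3).

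RagC and RagD each pair with RagA or RagB to form the Rag heterodimer. Rragc (chromosome 4, 123917446 to 123936997, plus strand) passed no comparison. It was at 48.6, 58.3 and 56.0 CPM in Null controls and at 44.5, 48.9 and 48.5 CPM in DKO controls. After etoposide it was at 56.5, 54.3 and 54.8 CPM in Null libraries and at 51.7, 52.0 and 56.3 CPM in DKO libraries. The genotypes overlapped under both treatments, and in DKO cells the etoposide libraries were all above the controls. The log2 difference between genotypes was -0.20 in control cells (95% confidence interval -0.37 to -0.02, limma-trend adjusted p = 0.116) and -0.05 after etoposide (-0.22 to 0.12). It passed in control cells without Null control replicate 1 (-0.27, limma-trend adjusted p = 0.0205) and with scaling by library size alone (-0.28, limma-trend adjusted p = 0.0140). For etoposide it was 0.03 in Null cells (-0.15 to 0.20) and 0.17 in DKO cells (-0.00 to 0.35), where it passed with scaling by library size alone (0.23, limma-trend adjusted p = 0.0198). Its exons overlap those of 4930535I16Rik on the other strand, which could supply at most 3.86% of its counts.

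Rragd (chromosome 4, 32983037 to 33022180, plus strand), described elsewhere as a target of TFEB and TFE3, was almost absent. It had 9, 11 and 3 counts in Null controls and 6, 2 and 3 in DKO controls. With etoposide it had 3, 9 and 5 counts in Null and 3, 2 and 23 in DKO libraries. The groups overlapped, and 23 counts in DKO etoposide replicate 3 set the mean of that group. No log2 difference passed the threshold. They were -0.76 ± 0.587 (DKO against Null, control), 0.09 (the same after etoposide), -0.54 (etoposide in Null) and 0.31 (etoposide in DKO). The last was -0.38 without DKO etoposide replicate 3. Omission of Null control replicate 1 changed the first to -0.46 and the third to -0.23, and that of replicate 3 changed the first to -1.22 and also made the third larger in size. A 95% confidence interval from -2.04 to 0.52 in the control comparison shows how little this depth resolves. Per kb, Rragc was 231 to 2302 times as abundant as Rragd in DKO etoposide and 258 to 1403 times in Null control libraries.

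Gpnmb (chromosome 6, 49036546 to 49070929, plus strand) encodes a transmembrane glycoprotein of lysosomes and melanosomes and is used as a readout of TFE3 activity. It showed the largest genotype difference of the 9 genes. Null controls held 56, 64 and 35 counts and DKO controls 0, 12 and 1. With etoposide, Null libraries held 102, 82 and 101 counts and DKO libraries 13, 13 and 15. In CPM these are 1.82, 1.29 and 0.721, then 0, 0.215 and 0.0305, then 1.72, 1.55 and 1.95, and 0.236, 0.227 and 0.247. Every DKO library was below every Null library. The log2 difference was -3.47 ± 0.474 in control cells (limma-trend adjusted p = 1.68e-04) and -2.60 after etoposide (limma-trend adjusted p = 0.00101). Since fitted values of so few counts depend on the prior count, the pooled counts were compared too. Gpnmb was 13.1-fold lower in DKO control cells (13 against 155 counts, 95% exact binomial interval 7.45 to 25.2) and 7.33-fold lower after etoposide (41 against 285 counts, 5.27 to 10.4). These intervals cover counting error only, and 12 of the 13 DKO control counts were those of replicate 2. The fitted control difference was -4.10 without that library and -2.99 without DKO control replicate 1, and it kept its call in both. With etoposide the log2 difference was 0.51 in Null cells (95% confidence interval -0.52 to 1.55, limma-trend adjusted p = 0.430), where the libraries overlapped, and 0.80 and 0.17 without Null control replicate 1 or 3. In DKO cells Gpnmb rose by 1.38 (limma-trend adjusted p = 0.0353). That call was lost in 10 of 20 alternatives and rests on the DKO controls: the value was 0.91 without DKO control replicate 1, 2.01 without DKO control replicate 2 and 1.23 without DKO control replicate 3. It was also lost, at values from 1.35 up to 1.40, without any 1 of the DKO etoposide libraries or without Null etoposide replicate 1 or 2. The responses differed by 0.87, with a 95% confidence interval from -0.59 to 2.33, and by 0.40 and 1.50 without DKO control replicate 1 or 2.

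**Figure D3:**
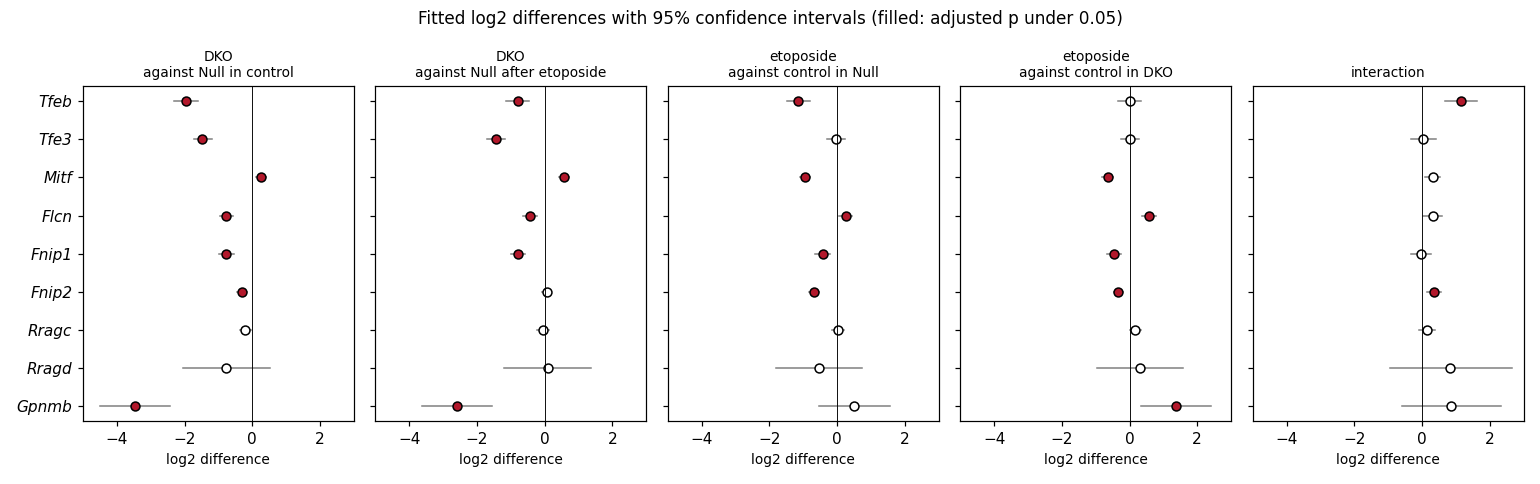
Fitted log2 differences (horizontal axis) of the 9 genes tested, 1 panel per comparison, with 95% confidence intervals as bars and filled circles where the limma-trend adjusted p was under 0.05; the interaction is the DKO response minus the Null response. Gpnmb, Tfeb and Tfe3 lie farthest to the left for DKO against Null in control cells (-3.47, -1.95 and -1.47) and Mitf lies to the right (0.26).

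The calls were counted against those over all genes. Because the listed genes were chosen with earlier results of these data known, these shares are descriptive and test nothing about the list. Between DKO and Null control cells 7 of the 9 genes passed, 1 higher (Mitf) and 6 lower, where 19.3% of the 18066 genes passed (10.9% higher and 8.39% lower). Tfeb and Tfe3, whose loss defines the DKO cells, are among the 6. The libraries of the 2 groups did not overlap for 7 of 9 genes, against 27.6% of all genes. After etoposide 6 of 9 differed between genotypes, 1 higher and 5 lower, where 33.6% of all genes passed (15.9% higher and 17.8% lower). Here 6 of 9 did not overlap, against 55.6% of all genes. The median log2 difference of the 9 genes was -0.76 in control and -0.43 in etoposide-treated cells, and that of all genes -0.00 and -0.01.

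Etoposide changed 5 of the 9 genes in Null cells, 1 higher and 4 lower, where it changed 39.6% of all genes (20.9% higher and 18.7% lower). In DKO cells it also changed 5 of 9, 2 higher and 3 lower, where it changed 39.3% of all genes (20.2% higher and 19.1% lower). Groups did not overlap for 5 of 9 genes in Null cells (53.0% of all genes) and 6 of 9 in DKO cells (46.4%). Mitf, Fnip1 and Fnip2 fell and Flcn rose in both genotypes. The interaction was called for 2 of 9 genes, Tfeb and Fnip2, both higher, where 9.45% of all genes were called (3.07% higher and 6.39% lower). The 4 comparisons share their libraries in pairs, so their values stand side by side without a test of overlap.

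The order of the 10 genes by CPM per kb shifted with genotype and drug. In Null control cells it ran Fnip2 (18.1), Rragc (16.3), Tfe3 (11.3), Mitf (8.04), Fnip1 (7.77), Flcn (7.35), Tfeb (2.97), Gpnmb (0.196), Rragd (0.0371) and Tfec (0). Fnip2 and Rragc overlapped, as did Mitf with Fnip1 and Fnip1 with Flcn. In DKO control cells Mitf stood in the third place at 9.64, apart from both neighbours, and Tfe3 at 4.08 followed Fnip1 (4.57) and Flcn (4.36), where Fnip1 overlapped with Flcn and Flcn with Tfe3. After etoposide Rragc led in both genotypes, at 16.5 in Null and 16.0 in DKO cells, and Fnip2 followed at 11.3 and 11.7.

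The promoters of the folliculin and Rag genes and of Gpnmb were read for the E-box, since Flcn, Fnip1, Fnip2 and Gpnmb were lower in DKO control cells and Rragc did not pass the test. Sequences are from RefSeq (GRCm38.p6), the 250 bases before a gene's start, 5′ to 3′ in the direction of the gene. CACGTG reads the same on both strands, and TCACGTG, searched on both strands, contains it. Windows of 250 bases before to 50 bases after the start held CACGTG in 7.15% of 32851 promoters, TCACGTG in 3.77% and CATGTG, a related E-box, in 14.2%. Counted by gene, where any promoter of a gene may hold the motif, the shares of 27025 genes were 8.09%, 4.29% and 15.9%. Of the 10 genes only Fnip1 and Rragc had a CACGTG. Both are followed by an A and so are TCACGTG on the other strand. None of the 10 had a CATGTG. The stretches below show the gene with the motif that was lower (Fnip1), the gene with the motif that did not pass (Rragc), and 2 genes without it that were lower (Flcn and Gpnmb), with CACGTG in capitals.
Fnip1, chr11:54437929-54438178, plus strand: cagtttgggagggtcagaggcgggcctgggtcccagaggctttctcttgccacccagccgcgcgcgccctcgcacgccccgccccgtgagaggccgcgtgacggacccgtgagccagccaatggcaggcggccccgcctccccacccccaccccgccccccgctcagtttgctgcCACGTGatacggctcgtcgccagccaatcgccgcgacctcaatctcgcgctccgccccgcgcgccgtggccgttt
Rragc, chr4:123917183-123917432, plus strand: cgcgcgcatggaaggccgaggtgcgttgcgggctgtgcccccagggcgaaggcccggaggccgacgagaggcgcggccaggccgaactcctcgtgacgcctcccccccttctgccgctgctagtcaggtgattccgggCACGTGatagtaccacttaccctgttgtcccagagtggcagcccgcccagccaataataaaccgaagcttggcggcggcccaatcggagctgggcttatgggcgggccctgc
Flcn, chr11:59810040-59810289, minus strand: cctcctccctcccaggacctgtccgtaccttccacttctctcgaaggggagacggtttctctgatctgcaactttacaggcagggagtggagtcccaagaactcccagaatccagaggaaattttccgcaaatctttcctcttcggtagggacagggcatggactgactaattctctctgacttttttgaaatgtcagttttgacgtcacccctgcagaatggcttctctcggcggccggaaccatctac
Gpnmb, chr6:49036268-49036517, plus strand: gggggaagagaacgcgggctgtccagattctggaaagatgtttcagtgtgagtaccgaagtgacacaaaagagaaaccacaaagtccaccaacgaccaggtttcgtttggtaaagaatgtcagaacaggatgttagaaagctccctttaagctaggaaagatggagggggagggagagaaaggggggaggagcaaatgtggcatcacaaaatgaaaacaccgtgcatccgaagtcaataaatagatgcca

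The first base of CACGTG lies at -75 in Fnip1 and at -112 in Rragc, counted from the start. Of the genes with the letters, Fnip1 was lower in DKO control cells (log2 difference -0.76) and Rragc was not called (-0.20), and of those without them Flcn (-0.76), Fnip2 (-0.30) and Gpnmb (-3.47) were lower and Rragd (-0.76) was not called. Absence says only that these letters are not in this window. Of 719 tested genes with TCACGTG in a promoter window, 10.2% were higher and 10.4% lower in DKO control cells, with a median log2 difference of -0.00, and 18.6% were higher and 17.2% lower after etoposide. These shares are near those of all genes, 10.9% and 8.39% in control cells and 15.9% and 17.8% after etoposide.

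The wider pathway was described by 5 lists of genes. These were also chosen with earlier results of these data known, so their shares beside those of all genes are descriptive. The Rag and mTORC1 machinery held 33 genes, among them the other Rags, Ragulator, GATOR and the sestrins. In DKO control cells 0 were higher and 4 lower by limma-trend (Sesn1, Lamtor4 and Mios among them), and at an unadjusted p under 0.05 these counts were 5 and 7, with edgeR 1 and 4, and with DESeq2 0 and 4. Sesn1, a leucine-linked inhibitor of mTORC1, had 43.4 ± 6.71 CPM in Null against 16.5 ± 2.47 CPM in DKO controls (SD, n = 3, log2 difference -1.39), and Lamtor4, a Ragulator subunit, at 10.8 ± 0.0782 and 6.48 ± 0.376 CPM (-0.74). After etoposide 7 were higher and 6 lower in DKO cells. Rptor, the raptor subunit of mTORC1, and Akt1s1, its inhibitor PRAS40, were higher there (0.75 and 0.63), and Sesn1 and Sesn2 lower (-0.66 and -0.49). The Sesn2 difference was lost without any 1 of the Null etoposide libraries or without DKO etoposide replicate 1 or 2, with values from -0.56 to -0.41 over the 20 alternatives. The shares of the list called were 12.1% in control and 39.4% in etoposide-treated cells, where those of all genes were 19.3% and 33.6%. Etoposide itself raised 9 and lowered 4 of the 33 in Null cells and raised 12 and lowered 2 in DKO cells, in all 39.4% and 42.4% of the list, which is close to the 39.6% and 39.3% of all genes. Sesn2 rose from 41.4 ± 7.50 to 139.6 ± 4.67 CPM in Null cells (log2 difference 1.77), and Sesn3 rose by 2.88 from 0.0471 ± 0.0816 CPM, a fitted value that ranged from 2.59 to 3.95 over 20 alternatives since so low a level depends on the prior count. Rptor (-0.69) and Sesn1 (-0.62, from 43.4 ± 6.71 to 27.9 ± 0.848 CPM) fell with etoposide in Null cells. The interaction was called for Sesn1 (0.74, lost in 5 of 19 alternatives), Akt1s1 (0.59, lost in 11) and Sesn2 (-0.89, lost in 6).

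Of 24 genes for retention or release of the factors (14-3-3 proteins, calcineurin, PP2A, kinases and the calcium channel Mcoln1), 5 were higher and 0 lower in DKO control cells, and 8 higher and 0 lower after etoposide by limma-trend. At an unadjusted p under 0.05 these counts were 8 and 0, and 11 and 0. They were 6 and 0, and 8 and 0, with edgeR, and 5 and 0, and 8 and 0, with DESeq2. The shares called, 20.8% and 33.3%, were close to those of all genes (19.3% and 33.6%), of which 10.9% and 15.9% were higher. The list median was 0.15 and 0.24, that of all genes -0.00 and -0.01. Ywhag, a 14-3-3 gene, had 192 ± 10.9 CPM in Null against 254 ± 8.41 CPM in DKO controls (SD, n = 3, log2 difference 0.40), and Ywhah at 143 ± 23.5 and 247 ± 65.4 CPM (0.76). The Ywhah call was lost in a fit of the 2 groups alone (0.76, limma-trend adjusted p = 0.0742). After etoposide Ywhah differed by 0.70, and this call was lost without DKO etoposide replicate 3 (0.56). With etoposide 12 of 24 fell and 1 rose in Null cells, and 10 fell and 1 rose in DKO cells, where 18.7% and 19.1% of all genes fell and 20.9% and 20.2% rose. Ppp3ca, a catalytic subunit of calcineurin, fell by 0.96 in Null and by 0.66 in DKO cells on the log2 scale, and Mcoln1 was the gene that rose (0.41 and 0.34).

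The 40 CLEAR targets, genes of lysosome and autophagy, moved in both directions. In DKO control cells 6 were higher and 5 lower, with a median of -0.03, and after etoposide 11 were higher and 4 lower, with a median of 0.06. In all 27.5% and 37.5% of the list were called, against 19.3% and 33.6% of all genes. Cd63, a tetraspanin of late endosomes, had 1.70 ± 0.222 CPM in Null against 19.8 ± 1.36 CPM in DKO controls (SD, n = 3, log2 difference 3.50) and 3.12 higher after etoposide. Clcn7, a lysosomal chloride transporter, was lower in DKO control cells (-0.53). That call was lost without replicate 2 or 3 of either control group and in a fit of the 2 groups alone, with values of -0.68 to -0.42 over 20 alternatives. Ctsd was higher after etoposide (0.94), but 46.7% of its counts could come from a gene that overlaps it. Etoposide raised 11 and lowered 8 of the 40 in Null cells, and raised 14 and lowered 8 in DKO cells, in all 47.5% and 55.0% of the list against 39.6% and 39.3% of all genes. Uvrag, an autophagy gene, fell by 1.70 on the log2 scale in Null cells and by 0.84 in DKO cells, an interaction of 0.86. Of 32 CLEAR targets with a RefSeq promoter, 13 held TCACGTG, which 4.29% of all genes with a promoter held. The CLEAR network is known by this motif, so a high share follows from how such a list is made.

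Of 18 targets known for MITF in osteoclasts and melanocytes, 9 were tested, 8 were below the filter and 1 was not analysed here. In DKO control cells 3 of the 9 were higher and 2 lower, where 10.9% of all genes were higher and 8.39% lower. Acp5, the tartrate-resistant phosphatase of osteoclasts, had 0.188 ± 0.104 CPM in Null against 2.72 ± 0.341 CPM in DKO controls (SD, n = 3), a log2 difference of 3.58. Dcstamp, needed for osteoclast fusion, was at 2.95 ± 0.225 and 13.0 ± 3.01 CPM (2.09), while Mmp9 was lower (-1.17). After etoposide Acp5 (3.63) and Dcstamp (1.42) were higher in DKO cells and Clcn7 lower (-0.86). Etoposide raised 6 of the 9 in Null and 5 in DKO cells and lowered 0 in either by limma-trend, edgeR, DESeq2 or an unadjusted p under 0.05, where 20.9% and 20.2% of all genes rose.

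In control cells the largest differences among the listed genes were those of other factors that bind E-boxes. Of 17, 3 were higher and 2 lower in DKO control cells, and 4 were higher and 3 lower after etoposide, in all 29.4% and 41.2% of the list against 19.3% and 33.6% of all genes. Myc had 0.174 ± 0.0851 CPM in Null against 9.77 ± 2.04 CPM in DKO controls (SD, n = 3, log2 difference 5.45). Bhlhe41, a repressor that recognizes the same E-box, was at 14.4 ± 2.85 and 0.0532 ± 0.0223 CPM (-7.01). The DKO mean lies below the limit of 3 counts in those libraries (0.0539 to 0.0915 CPM), so the fitted value depends on the prior count, and it ranged from -8.01 to -6.88 over 20 alternatives. Reads of an overlapping gene could supply at most 23.7% of the Bhlhe41 counts. Mxd4, a partner of MAX, was at 11.2 ± 0.221 and 20.5 ± 0.582 CPM (0.87), and up to 24.2% of its counts could come from an antisense gene. Mlxipl, 0.381 ± 0.288 CPM in Null control cells, had no count in the DKO control libraries. After etoposide Myc (3.14) and Bhlhe40 (0.82) were higher and Bhlhe41 (-4.33) and Mxd1 (-0.74) lower in DKO cells. With etoposide 3 of the 17 rose and 4 fell in Null cells, and 6 rose and 3 fell in DKO cells, in all 41.2% and 52.9% of the list against 39.6% and 39.3% of all genes. Mxd4 rose in both, by 2.44 and 1.25, and Myc rose by 1.87 in Null cells. Bhlhe41 (-2.24) and Bhlhe40 (-1.01) fell in Null cells, and Bhlhe40 (-0.73) and Usf2 (-0.58, lost in 14 of 20 alternatives) fell in DKO cells.

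**Figure D4:**
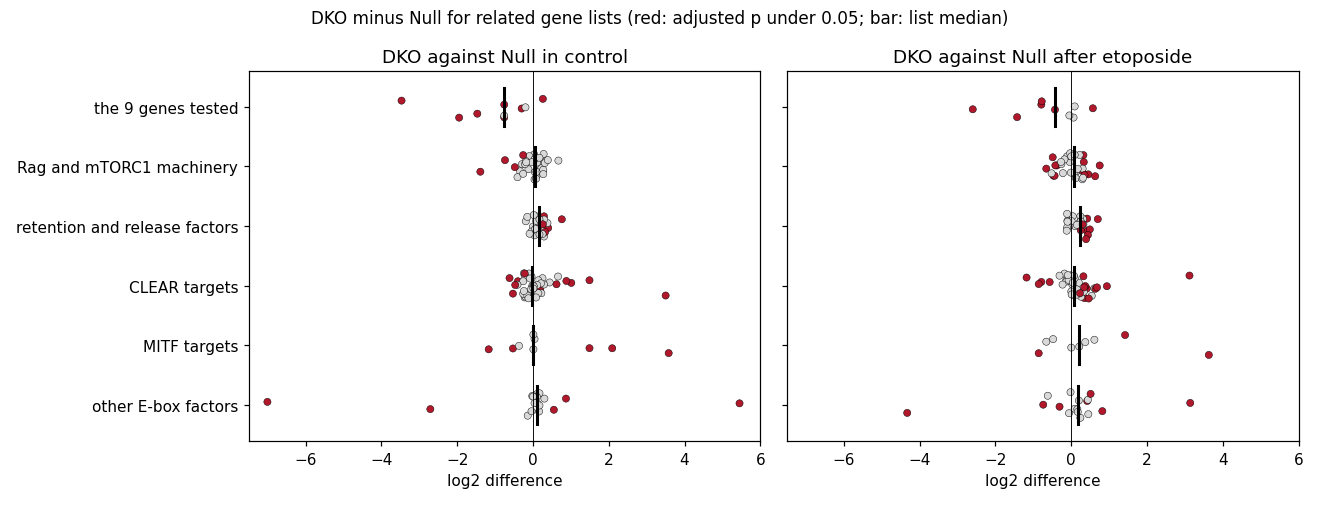
Log2 differences of DKO against Null (horizontal axis) for the 9 genes tested and for the 5 related lists, in control cells (left) and after etoposide (right). Each point is a gene, red where the limma-trend adjusted p was under 0.05, and the black bar is the median of the list; the 9 genes have the median farthest below 0 (-0.76 and -0.43), and the E-box factors span -7.01 to 5.45 in control cells.

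Genes whose pattern was most like a member's were found by Pearson correlation of log2 CPM over the 12 libraries, among 10919 or 10920 protein-coding genes of at least 1 CPM. The 12 libraries fall into 4 groups, so these values mostly describe group means. Trim30a (0.994), Chchd10 (0.992) and Csf3r (0.989) were nearest to Tfe3, Sp110 (0.985) to Tfeb and Prkch (0.991) to Mitf. Fut7 (0.983) was nearest to Flcn, Tceal9 (0.988) to Fnip1, Atp8a1 (0.986) to Fnip2 and Lgals3bp (0.970) to Gpnmb. The nearest to Rragc, Dclre1b (0.849) and Cdk4 (0.845), and to Rragd, Trit1 (0.805), were less alike.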

How the data were processed

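Total RNA of 12 RAW264.7 libraries was measured, 3 in each group of genotype by etoposide. According to the study's methods, the authors made stranded libraries after removal of ribosomal RNA, sequenced read pairs, aligned them with HISAT2 and kept uniquely mapped pairs. The authors deposited unnormalized counts for each gene, 1 column per library. The methods name HTSeq with a GENCODE annotation for the counting, whereas the submitters' processing notes name featureCounts and mm10. The annotation release and the strand setting are not given in the sources used here, so genes that overlap could share reads. The labels call the controls untreated, where the methods name DMSO, and 2 RNA kits are named without saying which library each was used for.

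Low genes were removed by filterByExpr (edgeR 4.0.16, 4 groups), and the 18066 that stayed held 99.96% of all counts. Counts were scaled by TMM and expressed as log2 CPM with a prior count of 3, and CPM is the count scaled to the TMM-adjusted library total. The test was limma-trend with robust moderation (limma 3.58.1, R 4.3.3), which the study's methods name. A single model took all 12 libraries, with 1 mean for each group, and tests were two-sided. There were 5 comparisons, of which the interaction subtracts the Null response to etoposide from the DKO response. Genes with a Benjamini-Hochberg adjusted p under 0.05 over all genes tested were called. Log2 differences of genes with few counts are drawn toward 0 by the prior count. On simulated counts for etoposide against control in Null cells (18066 genes), 64 of 100 genes changed by 1 and 86 of 100 changed by 2 on the log2 scale were recovered.

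Gene positions and exon lengths are those of GENCODE M21 (GRCm38), which listed 99.4% of the gene identifiers, and promoters are from RefSeq. All 10 genes had a promoter there. The 10 genes are named in every comparison, and of each further list the 2 called genes with the highest and the 2 with the lowest log2 difference are named. Mios, the cell type markers and, for the interaction, Mxd1, Sqstm1 and Mxi1 were named after their values were seen, and some genes that the lists hold are counted but not reported here by name. The 10 genes and the lists were chosen with earlier results of these data known. Some genes stand in 2 lists (Mcoln1, Clcn7, Ostm1 and Atp6v0d2). Alternatives were edgeR's quasi-likelihood test, DESeq2 1.42.0, scaling by library size alone or by DESeq2 size factors, no low-count filter, a prior count of 1, a fit of the 2 groups compared, the replicate number as a block, the omission of each library, and a minimum absolute log2 difference of 1.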

Additional observations from a re-analysis of the deposited data

Results flagged for a closer look

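The etoposide response differed between DKO and Null cells, by the interaction in limma-trend, for the genes given here. Values are log2 responses in DKO cells from which the Null response was subtracted. Of the 9 pathway genes tested, Tfeb (1.16) and Fnip2 (0.35) were called. The Tfeb difference lay between 0.94 and 1.30 over 19 alternatives and was called in each, whereas that of Fnip2 was lost in 8 of 19. In the Rag and mTORC1 machinery these were Sesn1 (0.74), Akt1s1 (0.59) and Sesn2 (-0.89). Among the CLEAR targets they were Uvrag (0.86), Ctsf (-0.66), Gla (-0.57) and Sqstm1 (-0.51, lost in 5 of 19). Among the other E-box factors they were Bhlhe41 (2.68), Mlxipl (2.08), Mxi1 (0.40, lost in 8 of 19), Myc (-2.31), Mxd4 (-1.19) and Mxd1 (-0.91). The Bhlhe41 value rests on a DKO control level below the limit of 3 counts, and it ranged from 2.33 to 3.10 over 19 alternatives. The Mlxipl value depends on the prior count, since its DKO control libraries held no count, and it ranged from 1.62 to 6.37 over 19 alternatives, in 12 of which it was not called. Ctsf was not called without replicate 3 of either etoposide group, with values of -0.76 to -0.54 over the 19. Of the macrophage markers, Fcgr1 (-1.59), Csf1r (0.59) and Spi1 (0.45) were called, and the Spi1 call was lost in 4 of 19 alternatives, namely when replicate 2 of the Null controls, replicate 1 or 3 of the Null or replicate 1 of the DKO etoposide libraries was omitted. Of the fibroblast markers, Pdgfra (-1.52, lost in 16 of 19) and Pdgfrb (1.09, lost in 12 of 19) were called, at few counts.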

How the results depend on the processing

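With a minimum absolute log2 difference of 1, the calls among the 9 genes were 1 (etoposide in Null), 1 (etoposide in DKO), 3 (genotype in control cells), 2 (genotype after etoposide) and 1 (interaction), against 5, 5, 7, 6 and 2. The interaction gave 1 call without the low-count filter and 1 with the replicate number as a block, and 1 to 3 when a library was left out. It was 3 without Null control replicate 1 or DKO control replicate 1, and 1 without DKO control replicate 3, Null etoposide replicate 2 or 3 or any 1 DKO etoposide library. Of the values of single genes under the alternatives, 824 kept direction and call, 37 lost a call, 7 gained one and 23 changed sign. Those that changed sign were not called. Tfe3 gave 0.06 for etoposide in Null cells without Null control replicate 1 (range over omitted libraries -0.14 to 0.06). For etoposide in DKO cells it gave -0.00 (edgeR), -0.01 (no low-count filter), -0.00 (only the 2 groups), -0.13 (DKO control replicate 1 omitted), and -0.01 and -0.05 (DKO etoposide replicate 1 or 3 omitted), with a range of -0.13 to 0.09. Its interaction was -0.06, -0.09 and -0.01 without Null control replicate 1, DKO control replicate 1 or DKO etoposide replicate 3 (range -0.09 to 0.15). Tfeb in DKO cells gave -0.01 (edgeR), -0.00 (DESeq2), -0.22 (DKO control replicate 1 omitted) and -0.00 (DKO etoposide replicate 3 omitted), with a range of -0.22 to 0.15. Rragc in Null cells gave -0.05 without Null control replicate 1. Rragd gave -0.38 for etoposide in DKO cells, and -0.17 and -0.60 for genotype after etoposide, without Null etoposide replicate 1 (-0.17) or DKO etoposide replicate 3 (both others). Its ranges over omitted libraries were -0.38 to 0.73 and -0.60 to 0.50. The Fnip1 interaction was 0.02 with library size alone, and 0.07, 0.04, 0.03 and 0.02 without Null control replicate 1, DKO control replicate 1, Null etoposide replicate 1 or DKO etoposide replicate 3 (range -0.11 to 0.07). The causes were not tested. Of 100 called values of the other named genes, 20 lost the call in at least 1 alternative and none changed sign. Usf2 in etoposide-treated DKO cells (-0.58) lost it in 14 of 20.

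The replicate numbers gave little sign of pairing, though so few libraries per group cannot settle whether same-numbered libraries were handled together. Deviations of same-numbered libraries correlated at -0.54 to 0.39, 1 of 18 pairs was over 0.1, and 0 of 12 libraries correlated best with its own number. With the number as a block, the calls of Flcn in Null cells (0.25), Gpnmb in DKO cells (1.38) and the Fnip2 interaction (0.35) were lost, as were those of Sesn2 after etoposide (-0.49), of Itgam after etoposide (-0.40), of Usf2 in DKO cells (-0.58) and of the interactions of Sesn1 (0.74), Sesn2 (-0.89), Akt1s1 (0.59), Mlxipl (2.08), Sqstm1 (-0.51), Mxi1 (0.40), Pdgfra (-1.52) and Pdgfrb (1.09).

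Scaling by library size alone moved the median of all genes by at most 0.08 on the log2 scale. Rragd, Tfec and, in DKO cells, Gpnmb are limited by depth. Each genotype is 1 line, so line and genotype cannot be told apart.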
